A study of Homo sapiens with 8 samples.

Results

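The data described here are the single guide RNAs (sgRNAs) against cytochrome P450 (CYP) genes in a pooled CRISPR knockout screen for regulators of PRMT5, the main symmetric arginine methyltransferase. The members are all sgRNAs whose target symbol starts with CYP, a family number and a subfamily letter. They were 321 sgRNAs against 46 genes, among 10429 sgRNAs in the whole table, of which 9929 targeted 1420 genes and 500 were controls. Of the CYP genes, 45 had 7 sgRNAs each and 1 had 6. By family number, 21 genes with 146 sgRNAs belonged to families 1 to 3, 8 genes with 56 sgRNAs to family 4 and 17 genes with 119 sgRNAs to families above 4.

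The screen was made in COV362, an ovarian cancer cell line labeled as high-grade serous and as chemo-resistant, and the study describes it as selected for platinum resistance. All cells carried Cas9 and a druggable genome library, and after drug selection of the transduced cells they were split into parallel cultures, stained for PRMT5 protein and sorted. The PRMT5 low group held the dimmest cells in 4 libraries, and the PRMT5 high group held the brightest cells in 4 libraries. Both groups had the same genotype, labeled WT, and came from the same transduction, so the p-values reflect how much parallel cultures from 1 transduction differed.

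Cytochrome P450 enzymes are heme proteins that insert oxygen into small molecules, with electrons passed on by P450 oxidoreductase in the endoplasmic reticulum or by ferredoxin in mitochondria. Members of families 1 to 3 are best known for oxidizing drugs and other foreign compounds in the liver, family 4 members for hydroxylating fatty acids and eicosanoids, and the higher families for the synthesis and breakdown of steroid hormones, bile acids, vitamin D, retinoic acid and cholesterol. Many are expressed mainly in the liver, adrenal gland, gonad or kidney. The readout was sgRNA abundance in genomic DNA, so it holds no measure of whether a CYP gene was expressed in these cells.

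Abundance is given in CPM, the read count scaled to a fixed library total, averaged by the authors over the 4 libraries of each population. The log2 ratio is log2 of CPM + 1 in PRMT5 low over CPM + 1 in PRMT5 high, so a positive value means that cells carrying the sgRNA were more frequent in PRMT5 low. The names of the populations follow the legend of the study, whereas its methods text gives the sign the other way round. CYP sgRNAs had a median of 85.1 CPM in PRMT5 low, where they ranged from 16.1 to 303 CPM, and a median of 82.4 CPM in PRMT5 high, where they ranged from 11.0 to 305 CPM. This corresponded to a median of 406 reads per sgRNA and library in PRMT5 low and 331 reads in PRMT5 high, with the thinnest CYP sgRNA at 76.9 reads in PRMT5 low and 44.4 reads in PRMT5 high. Every CYP sgRNA was therefore measured in both populations.

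Most CYP genes lay near 0. The mean log2 ratio over the sgRNAs of a gene was within 0.1 of 0 for 26 of the 46 CYP genes, or 56.5%, against 63.2% of all 1420 genes. The gene means ranged from −0.25 for CYP2B6 to 0.30 for CYP27B1, with a mean of 0.02 and an SD of 0.12 over the 46 genes. Over the other 1374 genes the mean was −0.01 and the SD was also 0.12. CYP sgRNAs made up 3.02% ± 0.02 of the reads in PRMT5 low and 2.99% ± 0.02 in PRMT5 high (SE from the authors' variances over the libraries).

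Each sgRNA was scored by the difference of its 2 fractions over the root of their summed variances, with a one-sided p in each direction. At p under 0.05, 18 of the 321 CYP sgRNAs, or 5.61%, were more abundant in PRMT5 low, against a background of 5.66% of all targeting sgRNAs. Toward PRMT5 high, 11 CYP sgRNAs, or 3.43%, passed, against a background of 6.00%. The control sgRNAs passed more often, with 45 of 500 (9.00%) toward PRMT5 low and 33 of 500 (6.60%) toward PRMT5 high. Both control shares exceeded the nominal rate of 0.05. The controls were also more abundant than the CYP sgRNAs, with a median of 123 CPM in both populations. Their median SE of the log2 ratio was 0.20, against 0.25 for CYP sgRNAs, and the part of this in the shares was not tested. After Benjamini-Hochberg adjustment over all 10429 sgRNAs, 5 sgRNAs of the library passed 0.05 in a two-sided test and 0 of them targeted a CYP gene. The CYP sgRNA with the lowest two-sided adjusted p, of 0.094, was CYP3A4_2.

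Genes were called where Fisher's combination of the one-sided sgRNA p-values was under 0.01 and the mean log2 ratio was beyond 0.25. Toward PRMT5 low 1 CYP gene was called, CYP4F11, against a background of 0.704% of all genes, or 10 of 1420. Toward PRMT5 high 1 was called, CYP2B6, against a background of 0.845%, or 12 of 1420. By p under 0.01 alone, 4 of the 46 CYP genes passed toward PRMT5 low, or 8.70%, against a background of 2.96%, and 1 passed toward PRMT5 high, or 2.17%, against 2.68%. CYP2S1 and CYP3A4, both in families 1 to 3, were among those that passed in p toward PRMT5 low and not in size. After Benjamini-Hochberg adjustment over the 1420 genes, 0 CYP genes passed 0.05 by Fisher's method in either direction, against backgrounds of 0.141% toward PRMT5 low and 0.211% toward PRMT5 high, and at an unadjusted p under 0.05 there were 8 CYP genes toward PRMT5 low, or 17.4%, against a background of 8.59%, and 2 toward PRMT5 high, or 4.35%, against 9.30%.

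Family 4, the fatty acid hydroxylases, had the highest mean, with gene means averaging 0.07 ± 0.11 (SD over 8 genes) and 6 of 8 above 0. Within it the 5 CYP4F genes averaged 0.11 ± 0.09 (SD over 5 genes), with 5 of 5 above 0. The other 3, CYP4B1, CYP4A11 and CYP4Z1, averaged −0.01 ± 0.11 (SD over 3 genes), with 1 of 3 above 0. Families 1 to 3, the drug-metabolizing enzymes, averaged 0.01 ± 0.13 (SD over 21 genes), with 12 of 21 above 0. The steroid and vitamin families averaged 0.02 ± 0.12 (SD over 17 genes), with 8 of 17 above 0. Among all 1420 genes, 48.5% had a mean above 0. Their medians were 0.07 for family 4, 0.02 for families 1 to 3 and −0.01 for the families above 4, whereas the median of all genes was 0.00 and the median of the control sgRNAs was 0.01. No test was made between the groups, because genes of a group are not replicates of a condition.

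Measured over sgRNAs, the difference in mean log2 ratio between family 4 and families 1 to 3 was 0.06, with a 95% interval of −0.02 to 0.13 from the authors' variances. Between family 4 and the families above 4 the difference was 0.05, with an interval of −0.04 to 0.13. Between families 1 to 3 and the families above 4 it was −0.01, with an interval of −0.08 to 0.06. All 3 intervals included 0. They rest on each sgRNA's variance over the libraries, treat sgRNAs as independent and leave out the spread between genes. They are therefore no test between the groups, and differences within those bounds remain possible. Summed over its sgRNAs, family 4 took 0.560% ± 0.008 of reads in PRMT5 low and 0.539% ± 0.009 in PRMT5 high (SE). The families 1 to 3 took 1.41% ± 0.01 in PRMT5 low and 1.40% ± 0.01 in PRMT5 high, and the families above 4 took 1.05% ± 0.01 in both populations.

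The sgRNAs with low p were few in each group. In families 1 to 3, 11 of 146 sgRNAs in 6 genes passed a one-sided p of 0.05 toward PRMT5 low and 4 in 4 genes toward PRMT5 high. In family 4, 3 of 56 passed toward PRMT5 low and 2 toward PRMT5 high, and in the families above 4, 4 of 119 passed toward PRMT5 low and 5 toward PRMT5 high. As shares these were 7.53%, 5.36% and 3.36% toward PRMT5 low, against 5.66% of all targeting sgRNAs, and 2.74%, 3.57% and 4.20% toward PRMT5 high, against 6.00%, and no test between the groups was made. Family 4 sgRNAs were also more even in abundance, with the lowest at 52.1 CPM in PRMT5 low and 41.3 CPM in PRMT5 high, and 7 of 56 (12.5%) lay in the lowest tertile of the targeting sgRNAs by abundance. In the families above 4 that share was 37.8%, and in families 1 to 3 it was 34.2%. The SD of the log2 ratio over CYP sgRNAs was 0.35 in the lowest, 0.25 in the middle and 0.21 in the highest tertile of abundance, so sgRNAs of lower abundance varied more. The part of abundance in the spread within each group was not tested.

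CYP2B6, which hydroxylates bupropion, efavirenz and cyclophosphamide, was the CYP gene called toward PRMT5 high. It lies at chr19:40991282-41018398 (GRCh38.p14). Its 7 sgRNAs, in the order of their numbers, had 52.7, 47.7, 29.7, 128, 92.0, 67.9 and 87.6 CPM in PRMT5 low, against 67.7, 51.6, 33.6, 194, 117, 71.3 and 95.7 CPM in PRMT5 high. All 7 were lower in PRMT5 low, and CYP2B6 was the only CYP gene with all sgRNAs on that side, against a background of 1.20% of all genes. The mean log2 ratio was −0.25 ± 0.19 (SD over 7 sgRNAs), with a Fisher p of 0.0046 and an adjusted p of 0.27.

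The p of CYP2B6 leaned on the sgRNA CYP2B6_4, whose log2 ratio was −0.60 ± 0.07 (SE) with a one-sided p of 0.0019. The other 6 sgRNAs had one-sided p-values from 0.081 to 0.38. CYP2B6_4 also had the smallest variance that the method allows in PRMT5 low, meaning that its libraries there differed by no more than counting. Without CYP2B6_4 the mean was −0.20 and the Fisher p was 0.088, and the gene was no longer called. The median sgRNA, at −0.17, lay closer to 0 than the mean.

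CYP2S1, an enzyme of epithelial tissues outside the liver, had the lowest Fisher p of the CYP genes, 0.00083, with an adjusted p of 0.13 and a mean log2 ratio of 0.22 ± 0.33 (SD over 7 sgRNAs). Its sgRNAs had 38.8, 210, 56.3, 103, 61.4, 99.1 and 170 CPM in PRMT5 low, against 32.2, 205, 37.2, 112, 71.2, 66.5 and 124 CPM in PRMT5 high. A one-sided p of 0.05 toward PRMT5 low was passed by 4 of them, with log2 ratios from 0.26 to 0.59, and no other CYP gene had more than 2. The remaining 3 were at 0.04, −0.13 and −0.21.

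CYP3A4, a major drug-oxidizing P450 of adult liver, passed the p limit with a mean of only 0.13 ± 0.35 (SD over 7 sgRNAs) and a Fisher p of 0.0031. Its sgRNAs had 52.4, 158, 95.6, 158, 177, 184 and 40.2 CPM in PRMT5 low, against 63.8, 109, 114, 162, 166, 153 and 26.2 CPM in PRMT5 high. In PRMT5 low, 4 were higher and 3 were lower. CYP3A4_2, at 0.53 ± 0.06 (SE), and CYP3A4_7, at 0.60 ± 0.28 (SE), passed one by one. Without CYP3A4_2 the mean was 0.06 and the Fisher p was 0.24.

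The other genes of families 1 to 3 described here did not pass the p limit. CYP2C18, a CYP2C enzyme of skin and other epithelia, had the second lowest mean of this group, −0.22 ± 0.38 (SD over 7 sgRNAs), with 1 of 7 sgRNAs above 0 and a Fisher p of 0.060 toward PRMT5 high. CYP2C18_6 had the lowest log2 ratio of all CYP sgRNAs, −0.84 ± 0.38 (SE), at 32.1 CPM in PRMT5 low and 58.1 CPM in PRMT5 high, and it did not pass p 0.05. The next lowest in families 1 to 3 was CYP2A7_3, at −0.62 ± 0.32 (SE). The hydrocarbon-inducible enzymes CYP1A1, CYP1A2 and CYP1B1 had means of 0.03, 0.02 and −0.04, with 0 of their 21 sgRNAs past p 0.05 in either direction. CYP2D6, which oxidizes codeine and many antidepressants, was at 0.00, CYP2E1, the ethanol-inducible form, at −0.02, CYP2R1, a vitamin D hydroxylase, at 0.05 and CYP2J2, an arachidonic acid epoxygenase, at 0.08.

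CYP4F11, a hydroxylase of long-chain fatty acids and vitamin K, was the CYP gene called toward PRMT5 low. It lies at chr19:15912377-15934867 (GRCh38.p14). Its 7 sgRNAs had 75.1, 103, 56.2, 110, 125, 130 and 68.0 CPM in PRMT5 low, against 86.8, 75.8, 41.3, 84.6, 128, 105 and 49.3 CPM in PRMT5 high. In PRMT5 low 5 of 7 were higher, with log2 ratios from 0.30 to 0.46, and the other 2 were at −0.21 and −0.03. The mean was 0.25 ± 0.26 (SD over 7 sgRNAs), with a Fisher p of 0.0049 and an adjusted p of 0.28.

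Only CYP4F11_4, at 0.37 ± 0.10 (SE), passed a one-sided p of 0.05 by itself, and the other 4 sgRNAs above 0 had p-values from 0.053 to 0.12. Like CYP2B6_4, CYP4F11_4 had the smallest variance that the method allows in PRMT5 low. Without CYP4F11_4 the mean was 0.23 and the Fisher p was 0.044, and the gene was no longer called. The median sgRNA of CYP4F11, at 0.37, lay farther from 0 than its mean, unlike that of CYP2B6. The mean, 0.2508 before rounding, exceeded the limit by little, and leaving out 1 sgRNA at a time gave means of 0.22 to 0.33 and Fisher p-values of 0.0018 to 0.044, with the call kept in 2 of 7 cases. For CYP2B6 the same step kept it in 4 of 7 cases.

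The remaining family 4 genes were CYP4F12, CYP4F3, CYP4Z1, CYP4F2, CYP4F8, CYP4A11 and CYP4B1. CYP4F12 had a mean of 0.12 ± 0.24 (SD over 7 sgRNAs), and its sgRNA CYP4F12_1, at 0.54 ± 0.22 (SE), was the highest of the family, followed by CYP4F11_7, at 0.46 ± 0.38 (SE). CYP4F3, which inactivates leukotriene B4, had a mean of 0.12 ± 0.10 (SD over 7 sgRNAs) with 6 of 7 sgRNAs above 0, and the spread over its sgRNAs was the narrowest of all CYP genes. CYP4B1, an enzyme of lung and bladder, had the lowest mean, −0.10 ± 0.33 (SD over 7 sgRNAs). CYP4B1_2 alone was at −0.75 ± 0.24 (SE), with 62.5 CPM in PRMT5 low and 106 CPM in PRMT5 high. CYP4A11, an omega-hydroxylase of medium-chain fatty acids, was at −0.04 ± 0.18 (SD over 7 sgRNAs), and its sgRNA CYP4A11_3, at −0.32 ± 0.23 (SE), was the second lowest of the family.

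No gene of the families above 4 was called. CYP27B1, the kidney enzyme that makes active vitamin D, had the highest mean of all CYP genes, 0.30 ± 0.16 (SD over 7 sgRNAs), and ranked 10 of 1420 genes by its mean. Its 7 sgRNAs had 37.2, 42.1, 129, 44.0, 50.6, 45.0 and 38.2 CPM in PRMT5 low, against 29.4, 28.4, 110, 37.0, 36.8, 38.7 and 36.2 CPM in PRMT5 high. All 7 were higher in PRMT5 low, and CYP27B1 was the only CYP gene with all sgRNAs on that side, against a background of 0.915% of all genes. The Fisher p was 0.031 and the adjusted p was 0.51. None of its sgRNAs passed p 0.05 alone, and it was the thinnest CYP gene, averaging 55.2 CPM in PRMT5 low and 45.3 CPM in PRMT5 high.

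Other genes of vitamin D and retinoic acid metabolism had means below 0 or near it. CYP24A1, which breaks down active vitamin D, had a mean of −0.12 ± 0.34 (SD over 7 sgRNAs), with a Fisher p of 0.26 toward PRMT5 high. CYP27A1, a mitochondrial enzyme of bile acid synthesis that can also hydroxylate vitamin D, was at 0.06 ± 0.15 (SD over 7 sgRNAs). CYP26A1 and CYP26C1, which clear retinoic acid, were at −0.18 ± 0.38 and −0.03 ± 0.35 (SD over 7 sgRNAs each). CYP26A1 had 2 sgRNAs past p 0.05 toward PRMT5 high, CYP26A1_1 with 83.8 CPM in PRMT5 low and 120 CPM in PRMT5 high, and CYP26A1_4 with 30.5 CPM in PRMT5 low and 46.0 CPM in PRMT5 high. Its Fisher p was 0.034 and its adjusted p was 0.47.

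CYP46A1, the cholesterol 24-hydroxylase of neurons, had the second highest mean of these families, 0.17 ± 0.38 (SD over 7 sgRNAs), with a Fisher p of 0.038 and an adjusted p of 0.52. CYP46A1_2, with 71.4 CPM in PRMT5 low and 43.3 CPM in PRMT5 high, had the highest log2 ratio of all CYP sgRNAs, 0.71 ± 0.30 (SE). CYP46A1_6 was at 18.0 CPM in PRMT5 low and 11.0 CPM in PRMT5 high, the lowest level of any CYP sgRNA in PRMT5 high. The median sgRNA of the gene was at 0.03. CYP51A1, the lanosterol demethylase of cholesterol synthesis, was at 0.12 ± 0.27 (SD over 7 sgRNAs), and CYP51A1_6, at 0.67 ± 0.31 (SE), was the next highest sgRNA of these families.

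Among the enzymes of steroid hormone synthesis, CYP17A1, which makes androgen precursors, was at 0.16 ± 0.32 (SD over 7 sgRNAs), CYP11A1, the side-chain cleavage enzyme, at 0.09 ± 0.33, aromatase (CYP19A1) at 0.01 ± 0.23, and CYP11B1 and CYP11B2, which make cortisol and aldosterone, at −0.01 ± 0.27 and 0.02 ± 0.17. CYP11A1_1 had a one-sided p of 0.00051, with 32.5 CPM in PRMT5 low and 21.3 CPM in PRMT5 high, at the smallest variance in both populations. For CYP11A1 as a gene the Fisher p toward PRMT5 low was 0.026 and the adjusted p was 0.49. Of the 6 enzymes of bile acids and oxysterols, CYP8B1 was at −0.12, CYP7B1 at −0.05, CYP7A1 at −0.03, CYP39A1 at −0.01, CYP27A1 at 0.06 and CYP46A1 at 0.17, and the 6 means averaged 0.00 ± 0.10 (SD over 6 genes). CYP8B1_1, at −0.68 ± 0.36 (SE), and CYP26C1_1, also at −0.68 ± 0.36 (SE), were the lowest sgRNAs of these families. CYP20A1, whose substrate is not known, was at −0.07 ± 0.25 (SD over 7 sgRNAs).

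Many CYP genes lie in tandem clusters of near relatives, and gene means within a cluster often had both signs. The 5 CYP4F genes on chromosome 19 had means of 0.02 to 0.25, but by the median over sgRNAs CYP4F8 and CYP4F2 were both at −0.05, each with 3 of 7 sgRNAs above 0. In all, 22 of the 35 CYP4F sgRNAs were above 0, or 62.9%, against 49.8% of all targeting sgRNAs. The CYP2 cluster on chromosome 19 (CYP2A6, CYP2A7, CYP2B6, CYP2A13, CYP2F1 and CYP2S1) held both the lowest CYP mean, of CYP2B6, and the mean of 0.22 of CYP2S1, and its average was 0.02 ± 0.18 (SD over 6 genes). In the CYP2C cluster on chromosome 10, CYP2C18 was at −0.22, CYP2C8 at −0.11 and CYP2C19 at 0.07. The CYP3A cluster on chromosome 7 ran from −0.12 for CYP3A43 to 0.13 for CYP3A4, with CYP3A5 at −0.01 and CYP3A7 at 0.02. In the CYP2A subfamily, CYP2A6, the nicotine hydroxylase, was at 0.17 with 6 of 7 sgRNAs above 0, CYP2A7 at −0.02 and CYP2A13 at −0.09. Relatives within these clusters are near-identical in places, so an sgRNA may cut more than 1 of them. The sgRNA sequences were not analysed here, and values of single members of these subfamilies are uncertain to that extent.

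Of the 29 CYP sgRNAs past p 0.05 in either direction, 15 (51.7%) had the smallest variance that the method allows in 1 or both populations, against 83 of all 321 CYP sgRNAs (25.9%). Every variance was then raised to at least the median of sgRNAs of like abundance. With this, 9 CYP sgRNAs, or 2.80%, passed toward PRMT5 low, against 2.83% of all targeting sgRNAs. Toward PRMT5 high 5 passed, or 1.56%, against 2.82%. Under that setting CYP4F11 had a Fisher p of 0.028, CYP2B6 of 0.015, CYP2S1 of 0.022 and CYP3A4 of 0.067, and none of these was called.

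The other library genes that serve or control P450 enzymes were counted by the same rules. POR, the reductase that passes electrons to the microsomal members, had a mean of 0.20 ± 0.20 (SD over 7 sgRNAs), with 6 of 7 sgRNAs above 0, a Fisher p of 0.047 and an adjusted p of 0.56. CYB5R3, the cytochrome b5 reductase, was at −0.07 ± 0.17 (SD over 7 sgRNAs), with 3 of 7 sgRNAs above 0, and neither was called. Of 11 receptors and partners that regulate CYP genes, 0 were called toward PRMT5 low or PRMT5 high, against 0.704% and 0.845% of all genes. By p under 0.01 alone 1 of 11 passed toward PRMT5 high, against 2.68% of all genes. It was AHR, the receptor that induces CYP1 genes. AHR had a mean of −0.24 ± 0.15 (SD over 7 sgRNAs), a Fisher p of 0.00043 toward PRMT5 high and an adjusted p of 0.10. All 7 of its sgRNAs were below 0, against a background of 1.20% of all genes. The median over these 11 genes was 0.05, and 6 of 11 had a mean above 0, against 48.5% of all genes.

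Of 13 other phase I enzymes, with a median of 0.04, 0 were called toward PRMT5 low or PRMT5 high, against 0.704% and 0.845% of all genes. By p under 0.01 alone 1 of 13 passed toward PRMT5 low, against 2.96% of all genes. It was AOX1, an aldehyde oxidase, with a Fisher p of 0.00013, a mean of 0.14 ± 0.33 (SD over 7 sgRNAs) and an adjusted p of 0.059. Of its 7 sgRNAs, 4 were above 0 and 2 passed a one-sided p of 0.05 toward PRMT5 low. Of 10 other steroid and sterol enzymes, 1 was called toward PRMT5 low and 0 toward PRMT5 high, against 0.704% and 0.845% of all genes, with a median of 0.02. It was HSD3B2, the adrenal and gonadal 3-beta-hydroxysteroid dehydrogenase, at 0.30 ± 0.34 (SD over 7 sgRNAs) with a Fisher p of 0.0021 and an adjusted p of 0.21. STS, the steroid sulfatase, was the 1 of 10 that passed the p limit alone toward PRMT5 high, against 2.68% of all genes. It had a Fisher p of 0.0051 and an adjusted p of 0.28, at a mean of −0.02 ± 0.46 (SD over 7 sgRNAs). Of its 7 sgRNAs, 4 were above 0 and 2 passed a one-sided p of 0.05 toward PRMT5 high. TBXAS1, the P450 that makes thromboxane and has a name outside the CYP scheme, was at 0.04 ± 0.16 (SD over 7 sgRNAs).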

How the data were processed

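Genomic DNA of 4 PRMT5 low and 4 PRMT5 high libraries was amplified by PCR, sequenced and mapped by the authors to the sgRNA library with the CB2 package. FastQC and hg38 are named in the submitters' processing notes. Versions were not given in the sources used. The deposited CPM values are the authors' means over the 4 libraries of a population. The deposited fraction of each sgRNA is the authors' estimate of its share of reads, and the deposited variance of that fraction is theirs too. Values of single libraries were not analysed here, so replicate SDs are lacking. The number of columns left out as belonging to no labeled sample was 0. The authors' own log ratios, scores and p-values, and their gene table, were not used.

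The totals of 19117396 reads in PRMT5 low and 16166859 reads in PRMT5 high were recovered from sgRNAs at the smallest variance, where the variance equals that of counting, and 100% of those sgRNAs came out as whole reads within 0.05. Reads carry no molecular identifiers, so this is counting error only. Scores used a t distribution with Welch's degrees of freedom, genes Fisher's combination, and adjustment the Benjamini-Hochberg method over 10429 sgRNAs or 1420 genes, with control sgRNAs left out as a gene (Python 3.11.15, SciPy 1.17.1, pandas 2.3.3). The SE of a log2 ratio follows from the authors' variances by the delta method, and SDs over sgRNAs or genes are not replicate errors. The code was tested on simulated data. Positions and symbols come from RefSeq, GRCh38.p14, where all 46 CYP genes were found. Alternatives changed the combination, limits, pseudocount, CPM minimum, centring, summary, classes and variances.

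Members and lists were chosen with earlier results of these data known. Named were called genes, the 2 highest and 2 lowest genes and sgRNAs of each class, genes with all sgRNAs on one side or 2 past p 0.05 one way, close paralogs as a group, and called or otherwise outstanding list members, of which POR, CYB5R3, AHR, AOX1, STS and TBXAS1, like the other genes named for their role, were chosen after their values were seen. Results for 1 gene under this rule are not reported here.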

Additional observations from a re-analysis of the deposited data

How the results depend on the processing

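No paired analysis was possible because the deposited values were pooled over the 4 libraries of each population, and for the same reason no library could be left out. The calls of 1 CYP gene in each direction depended on the limits. Toward PRMT5 low the count was 0 with a gene p under 0.001, with an adjusted p under 0.05, with CPM + 5, with CPM + 10, with centring on the control sgRNAs and with raised variances. It was 2 with Stouffer's combination (CYP27B1 and CYP4F11), 3 with the median over sgRNAs (CYP2S1 and CYP4F11 among them) and 4 with the limit on the mean lowered to 0. Under these settings 13, 13 and 40 of all 1420 genes were called. Over all genes, 10 were called toward PRMT5 low in the report, 7 with CPM + 5, 4 with CPM + 10, 8 with centring, 2 with a gene p under 0.001, 2 with raised variances and 0 with an adjusted p under 0.05 and the limit on the mean. Toward PRMT5 high the count was 0 with a gene p under 0.001, an adjusted p under 0.05, CPM + 5, CPM + 10, the median over sgRNAs and raised variances, where 5, 3, 9, 9, 7 and 5 of all genes were called, against 12 in the report. Raised variances and the limit of 0 on the mean were chosen after seeing the data.

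With a normal in place of the t distribution, the count of CYP sgRNAs past p 0.05 toward PRMT5 low was 31, or 9.66%, against 8.95% of all targeting sgRNAs. Toward PRMT5 high it was 27, or 8.41%, against 9.52%. With raised variances the count was 9, or 2.80%, toward PRMT5 low, against 2.83%, and 5, or 1.56%, toward PRMT5 high, against 2.82%. All 21 alternative values of the mean log2 ratio of the 3 groups of families moved by less than the half-width of that mean's 95% interval from the authors' variances. These half-widths were 0.044 for families 1 to 3, 0.066 for family 4 and 0.053 for the families above 4. The means were 0.012, 0.066 and 0.018 in the same order. In families 1 to 3 and above 4 a move to 0 would also have met this limit. In family 4 such a move would have missed it narrowly, at 0.0658 against 0.0657. The limit therefore says little about stability in any of the 3 groups. The sign of a gene's value changed for 0 of 46 CYP genes with CPM + 5, CPM + 10 or the CPM minimum, for 2 with centring (CYP19A1 and CYP2D6), and for 12 with the median over sgRNAs (CYP11B2, CYP1A2, CYP1B1, CYP26C1, CYP2A13, CYP2A7, CYP2E1, CYP39A1, CYP4F2, CYP4F8, CYP7B1 and CYP8B1), none of them called. The median SE of a CYP sgRNA was 0.25 on the log2 scale, which limits what single sgRNAs show.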
